A study of Mus musculus with 4 samples.

Results

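Intergenic DNA methylation was examined in pancreatic islets of WT and βRapKO mice by methylated DNA immunoprecipitation sequencing (MeDIP-seq), in which an antibody against 5-methylcytosine pulls down methylated fragments. The βRapKO islets carried Raptor lox/lox with RipCre, a Cre recombinase under the rat insulin promoter that deletes Raptor in insulin-expressing cells, and the WT islets were Raptor lox/lox without Cre. All mice were 8 weeks old. The labels give a C57BL/6 background for both groups, and the Cre line is given as mixed C57BL/6J:129/SvJ. Each genotype had 2 libraries, named WT 1, WT 2, βRapKO 1 and βRapKO 2. Whole hand-picked islets were used, so beta cells were not separated from the other islet cells, and the number of mice behind a library is not given in the sources used here.

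Peaks of the 4 libraries that overlapped by at least 1 bp on chromosomes 1 to 19 were joined into 180857 regions. Of these, 43135 overlapped no GENCODE gene of any type and lay more than 2 kb and at most 100 kb from the nearest protein-coding gene, and they are called intergenic regions here. Another 108180 regions overlapped a gene, 25738 lay over 100 kb from a protein-coding gene and 3804 lay within 2 kb of one. The sorting into these classes uses only position, while a region exists only where a library had a peak. RefSeq gene models, which the rule did not use, overlapped 6019 of the intergenic regions (14.0%).

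In mammals most cytosines followed by guanine (CpG sites) are methylated, in intergenic DNA as in gene bodies. Unmethylated stretches are found mainly at CpG-rich promoters and at enhancers, short elements that act on genes over a distance. Much of the intergenic DNA consists of transposon remnants and tandem repeats, which DNA methyltransferases keep methylated. MeDIP-seq measures the amount of methylated DNA pulled down, so its signal depends on how many CpG sites a fragment holds as well as on how many of them carry the mark.

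Sequences are shown for regions at the extremes of tag density, p and CpG content, which are not typical of the 43135. For 8 regions that the results below turn on, the 300 bp with the most CpG sites were read from GRCm38 (mm10, RefSeq assembly GRCm38.p6), with the CpG sites in capitals and all other bases in lower case. The first 3 windows come from regions with the highest tag density, the next 4 from regions with the smallest p between genotypes, and the last from a region with among the most CpG sites per base. These ranks were taken among regions with a peak in every library. Each is named by its nearest protein-coding gene. The windows of Kcnh5 and Polr3k are written on the minus strand, since they resembled the window before them in that direction, and the others on the plus strand.
Tmem125, chr4:118547816-118548115: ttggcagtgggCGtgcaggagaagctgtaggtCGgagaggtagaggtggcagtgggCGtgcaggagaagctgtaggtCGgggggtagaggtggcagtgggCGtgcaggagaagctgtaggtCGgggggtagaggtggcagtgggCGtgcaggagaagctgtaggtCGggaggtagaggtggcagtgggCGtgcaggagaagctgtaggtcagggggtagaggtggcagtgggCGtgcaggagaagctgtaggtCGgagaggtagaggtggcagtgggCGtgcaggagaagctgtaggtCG
Vmn1r2, chr4:3090296-3090595: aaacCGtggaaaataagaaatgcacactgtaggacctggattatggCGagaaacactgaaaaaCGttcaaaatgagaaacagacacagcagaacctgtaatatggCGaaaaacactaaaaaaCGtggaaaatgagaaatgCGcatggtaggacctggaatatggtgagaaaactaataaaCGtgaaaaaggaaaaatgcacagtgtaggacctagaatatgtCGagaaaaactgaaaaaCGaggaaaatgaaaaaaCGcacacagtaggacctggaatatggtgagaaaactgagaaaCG
Kcnh5, chr12:74804081-74804380: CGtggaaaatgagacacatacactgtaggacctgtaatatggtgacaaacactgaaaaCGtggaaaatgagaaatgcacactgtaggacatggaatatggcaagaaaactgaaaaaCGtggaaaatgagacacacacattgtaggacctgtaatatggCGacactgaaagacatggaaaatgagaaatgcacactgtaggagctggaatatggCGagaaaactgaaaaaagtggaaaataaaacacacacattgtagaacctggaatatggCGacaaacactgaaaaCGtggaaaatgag
G530012D18Rik, chr1:85475819-85476118: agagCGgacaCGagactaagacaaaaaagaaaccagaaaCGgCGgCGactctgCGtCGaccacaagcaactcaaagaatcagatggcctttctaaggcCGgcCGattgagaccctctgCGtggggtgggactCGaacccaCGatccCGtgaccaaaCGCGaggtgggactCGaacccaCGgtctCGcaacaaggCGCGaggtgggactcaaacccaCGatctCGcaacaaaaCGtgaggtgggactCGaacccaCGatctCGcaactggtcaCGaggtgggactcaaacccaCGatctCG
Polr3k, chr2:181920151-181920450: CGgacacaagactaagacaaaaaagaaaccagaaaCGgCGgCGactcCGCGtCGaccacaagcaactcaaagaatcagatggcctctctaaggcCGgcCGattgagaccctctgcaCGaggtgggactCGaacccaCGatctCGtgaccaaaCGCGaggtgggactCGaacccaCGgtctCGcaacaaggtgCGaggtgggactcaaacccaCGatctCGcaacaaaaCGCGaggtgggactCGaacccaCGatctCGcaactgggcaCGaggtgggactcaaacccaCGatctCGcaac
Prl2c2, chr13:12931990-12932289: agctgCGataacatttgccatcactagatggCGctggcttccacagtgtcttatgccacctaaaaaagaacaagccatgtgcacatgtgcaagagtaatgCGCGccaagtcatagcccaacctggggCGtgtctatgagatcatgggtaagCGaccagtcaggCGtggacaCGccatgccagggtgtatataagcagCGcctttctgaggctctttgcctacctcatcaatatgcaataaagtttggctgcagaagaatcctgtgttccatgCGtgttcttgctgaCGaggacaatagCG
Sept9, chr11:117389836-117390135: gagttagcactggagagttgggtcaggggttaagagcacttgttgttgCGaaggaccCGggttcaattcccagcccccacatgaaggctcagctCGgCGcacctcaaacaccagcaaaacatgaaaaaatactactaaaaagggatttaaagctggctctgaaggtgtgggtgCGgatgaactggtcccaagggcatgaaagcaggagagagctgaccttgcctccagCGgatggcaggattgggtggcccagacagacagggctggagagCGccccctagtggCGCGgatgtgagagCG
Syt10, chr15:89765341-89765640: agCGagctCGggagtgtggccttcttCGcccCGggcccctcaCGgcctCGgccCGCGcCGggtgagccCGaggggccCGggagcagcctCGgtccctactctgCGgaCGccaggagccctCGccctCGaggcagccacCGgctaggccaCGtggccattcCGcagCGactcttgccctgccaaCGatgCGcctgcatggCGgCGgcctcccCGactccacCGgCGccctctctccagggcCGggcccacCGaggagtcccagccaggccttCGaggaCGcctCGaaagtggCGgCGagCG

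The Tmem125 window was a tandem array, with 73.4% of its bases repeated at a step of 44 bp and one 12-base word present 7 times. The Vmn1r2 and Kcnh5 windows, which lie on different chromosomes, matched each other at 238 of 288 aligned bases (82.6%). Both resemble the AT-rich major satellite of the mouse, the repeat that fills the DNA around the centromeres. The word CGTGGAAAATGA, searched on both strands, occurred 6 times in each of these 2 regions, and 9 of the 43135 intergenic regions held it (0.0209%, against 0.0210% of all regions). The G530012D18Rik and Polr3k windows matched at 286 of 296 aligned bases (96.6%) and were built from a unit repeated at a step of 38 bp. The word GAGGTGGGACTC, frequent in both, was found in 155 intergenic regions (0.359%) and in 0.214% of all regions.

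The Syt10 window was of another kind, with 35 CpG sites in 300 bp, a GC content of 74.7%, and no repeated step of more than 38.0% identity. Sequences of this composition resemble CpG islands. The Prl2c2 and Sept9 windows held 12 and 10 CpG sites.

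The genome allowed 591 Mb of such intergenic sequence, and the regions were not spread evenly in it. They occurred at 73.0 per Mb, compared with 93.2 per Mb in genes and 43.7 per Mb over 100 kb from a gene. CpG sites were also sparser between genes, with 0.820 per 100 bp in the intergenic space against 0.977 in genes. Merged regions of any class covered 10.1% of the bases and 21.6% of the CpG sites of the intergenic space. In genes the corresponding shares were 11.8% and 21.3%. Within the regions CpG density was 1.75 per 100 bp between genes and 1.77 in genes, whereas outside them it was 0.715 and 0.871. Per CpG site, then, intergenic DNA was covered by peaks to nearly the same extent as gene DNA.

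**Figure D1:**
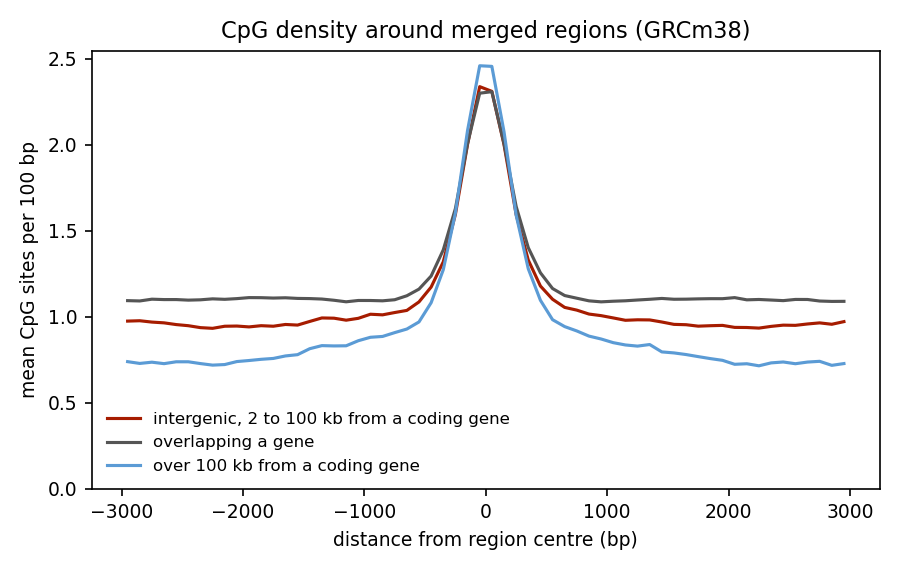
Mean CpG sites per 100 bp of the reference (y axis) in 100 bp steps from the centre of each region (x axis, bp), for intergenic regions, regions overlapping a gene and regions over 100 kb from a protein-coding gene. CpG density peaked at the centre in each class, and the flanks of the intergenic regions lay between those of the other classes.

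The peaks sat on local maxima of CpG density. In the 100 bp steps beside the centre of an intergenic region the mean was 2.34 and 2.31 CpG sites per 100 bp on the left and right, and at 2950 bp from the centre it was 0.975 and 0.972, as shown in the plot of CpG density around the centres. A 200 bp window with a GC content of at least 50% and an observed to expected CpG ratio of at least 0.6 was found in 40.2% of the intergenic regions and in 40.2% of those over genes. Intergenic regions held more repeats than those over genes. A median of 33.2% of their bases was soft-masked in the reference, which marks interspersed and simple repeats, against 19.1% over genes and 42.2% over 100 kb from a gene. The underlying sequence differed too, with 38.9% of all bases masked in the intergenic space, 27.8% in genes and 39.6% over 100 kb from a gene. At least 90% of the bases were masked in 3421 intergenic regions (7.93%) and in 2.25% of those over genes.

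Neighbouring intergenic regions were close to each other, with a median gap of 8.70 kb, and 33.9% of the gaps were under 5 kb. Upstream of the nearest gene lay 23400 regions (54.2%) and downstream 19735. Both sides had similar widths (medians of 1137 and 1142 bp) and CpG densities (1.55 and 1.58 per 100 bp). The number of regions per Mb was 72.9 at 2 to 5 kb from the gene, 76.7 at 5 to 10 kb, 76.2 at 10 to 20 kb, 75.4 at 20 to 50 kb and 65.8 at 50 to 100 kb. The CpG density of the DNA at those distances also had its lowest value farthest from the gene, 0.757 per 100 bp against 0.854 nearest to it.

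**Figure D2:**
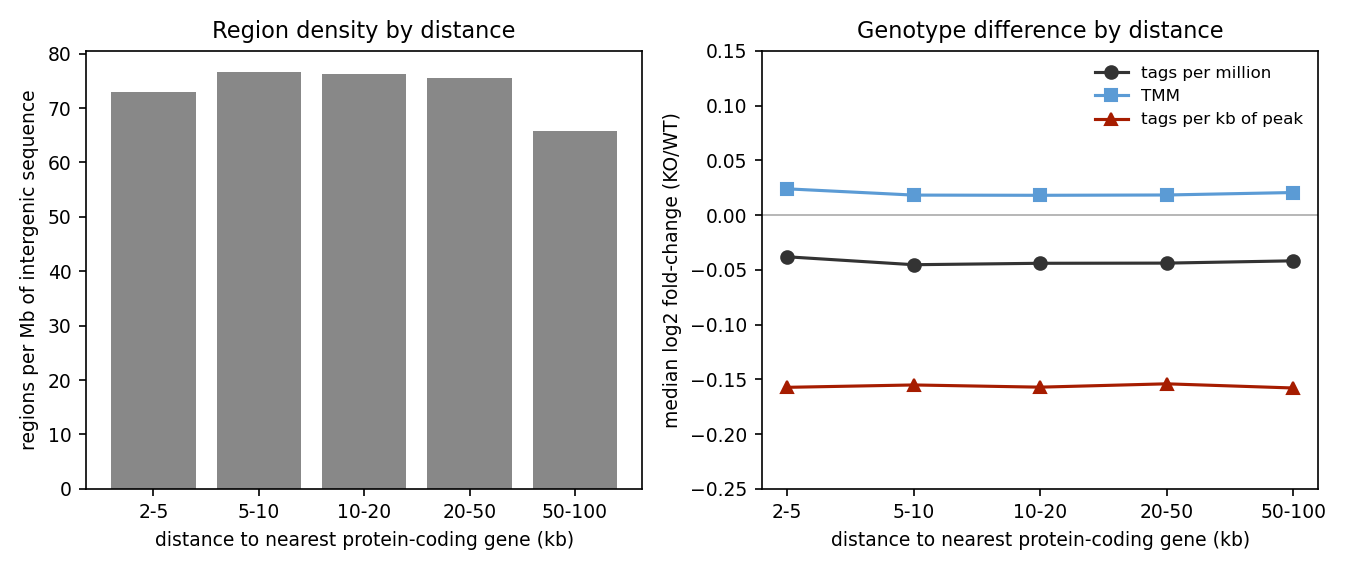
Left, intergenic regions per Mb of intergenic sequence (bars) by distance to the nearest protein-coding gene (kb). Right, the median log2 fold-change (βRapKO over WT) of the regions that every library called, under 3 scalings. Region density was lowest at 50 to 100 kb, and the fold-change lines are nearly level over distance while the scaling sets their height.

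After duplicate removal the libraries held 25585533 to 31330751 tags, with WT 2 the deepest and WT 1 the shallowest. WT 1 had a peak in 27510 of the intergenic regions, WT 2 in 33791, βRapKO 1 in 26777 and βRapKO 2 in 27283. WT 2 thus stands apart from the other 3, and it alone called 5512 of the regions, compared with 2038 to 2216 for each other library alone. The estimated fragment length was 238 bp in WT 2 and 269 to 283 bp in the others, and the median width of its intergenic peaks was 936 bp against 1058 bp in WT 1, 1103 bp in βRapKO 1 and 1148 bp in βRapKO 2. Of all tags, 32.0% lay in peaks in WT 1, 35.4% in WT 2, 29.2% in βRapKO 1 and 31.0% in βRapKO 2. Intergenic regions took 7.42%, 8.08%, 6.87% and 7.17% of the tags. Peak calls from MeDIP hold no transcripts, so the islet identity of the samples was not checked here against marker genes.

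The first question was whether intergenic methylation as a whole differed between WT and βRapKO islets. Tag density was used first, in tags per kb of peak per 1000000 tags of the library. Each median was taken over that library's own intergenic peaks, so the sets of peaks differ between libraries. The median intergenic peak had a density of 1.82 in WT 1, 1.81 in WT 2, 1.67 in βRapKO 1 and 1.66 in βRapKO 2. Both βRapKO values lay under both WT values. The WT mean of 1.81 ± 0.00997 (SD, n = 2) stood against 1.67 ± 0.00499 (SD, n = 2) for βRapKO, which is a log2 ratio of -0.12. The lower and upper quartiles differed in the same direction, from 1.52 to 1.42 and from 2.30 to 2.08. With 2 libraries per group the two-sided exact permutation test cannot give a p below 0.33, and it gave 0.33 for each of the 3 measures. The order depended on the scaling: scaled to the tags inside peaks, the log2 ratio of the medians was 0.04.

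Peak width moved the other way. The median width of the intergenic peaks averaged 997 ± 86.3 bp for WT (SD, n = 2) and 1126 ± 31.8 bp for βRapKO (SD, n = 2), again without overlap (exact permutation p = 0.33). Density is tags divided by width, so the measures are tied. The part that width and the fragment length of WT 2 have in the difference was not tested. In bulk islets, fewer cells of a type and less methylation per cell cannot be told apart.

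The difference was not particular to intergenic DNA. The median density of peaks over genes averaged 1.85 ± 0.00224 for WT (SD, n = 2) and 1.69 ± 0.00483 for βRapKO (SD, n = 2). Over 100 kb from a gene the means were 1.87 ± 0.00901 and 1.72 ± 0.00144. The log2 ratio of intergenic to gene density was -0.03 ± 0.01 in WT and -0.02 ± 0.01 in βRapKO (SD, n = 2 each), an interval that overlapped between genotypes (exact permutation p = 0.667). In CPM (tags per 1000000 tags of the library), over regions found in every library, the intergenic median minus that over genes was -0.04 on the log2 scale in WT and -0.02 in βRapKO. The difference of 0.02 exceeded the SDs of 0.00588 and 0.000924 within the groups, with an exact permutation p of 0.33. The same difference was 0.000183 among regions with at least 50 tags in every library.

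To compare single regions, the 72519 regions that every library called were tested together by edgeR's quasi-likelihood test, of which 17178 were intergenic. No intergenic region passed a false discovery rate (FDR, Benjamini-Hochberg) of 0.05 with a fold-change above 1.5, in either direction, and 0.00% of all tested regions did so in the lower and 0.00% in the higher direction. The smallest FDR of an intergenic region was 0.380 in edgeR, 0.358 in limma and 0.700 in DESeq2. At an unadjusted p under 0.05, 557 intergenic regions lay lower in βRapKO (3.24%, against 3.93% of all tested regions) and 361 higher (2.10%, against 1.90%). By the same measure limma had 562 and 354, and DESeq2 67 and 150. The balance turned with the scaling, to 331 lower and 558 higher with TMM and to 126 and 962 when scaled to the tags in peaks.

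The median log2 fold-change (βRapKO over WT, CPM) of the 17178 intergenic regions was -0.04, beside -0.06 over all tested regions and -0.07 over genes. Lower values were found in 10028 of them (58.4%). After TMM scaling the median was 0.02 and 46.1% lay lower. Per kb of peak it was -0.16 and 78.8% lay lower. The sign of the median therefore belongs to the scaling, and the per-library median CPM overlapped between genotypes, with log2 values of 1.23 and 1.22 in WT and 1.13 and 1.22 in βRapKO (exact permutation p = 0.667). Both βRapKO values were under both WT values in 3980 intergenic regions (23.2%, against 25.3% of all tested regions), and above them in 2165 (12.6%, against 11.7%). A fold above 1.5 was seen in 268 in the lower direction (1.56%, against 1.80%) and in 242 in the higher direction (1.41%, against 1.30%). Each of these shares is near that of all regions.

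Distance from the gene made little difference to the fold. The median was -0.05 at 5 to 10 kb and -0.04 in the other 4 distance classes, and per kb of peak it lay between -0.16 and -0.15, as the plot by distance shows. After TMM scaling it was 0.02 in each class. Per library, the median log2 CPM at 50 to 100 kb minus that at 2 to 10 kb averaged 0.02 ± 0.03 for WT (SD, n = 2) and 0.04 ± 0.00193 for βRapKO (SD, n = 2), a difference within the spread of WT (exact permutation p = 0.33). The difference of 0.02 turned to -0.01 without WT 1 and to -0.02 without βRapKO 2.

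Up to 4 CpG sites per 100 bp, regions richer in CpG sites were more often found in every library. Among intergenic regions with under 1 CpG site per 100 bp, 22.4% had a peak in all 4 libraries, and the share was 31.6%, 41.8%, 56.7% and 74.6% at densities of 1 to 1.5, 1.5 to 2, 2 to 3 and 3 to 4. Above 4 it was 46.2% of 236 regions, and the median CPM of the regions found in every library was 7.78 at 3 to 4 and 3.59 above 4. The median fold-change went from -0.02 in the poorest to -0.10 at 3 to 4 CpG sites per 100 bp and -0.15 above 4. In that last class, of which 109 regions had a peak in all 4 libraries, 78.9% lay lower in βRapKO. The TMM medians followed the same order, from 0.04 to -0.03 and -0.09, whereas those per kb of peak varied little, between -0.15 and -0.18. The median masked share did not follow the order throughout, being 38.9% in the poorest class, 27.6% at 1.5 to 2 and 91.0% in the richest.

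Width separated the regions by content. Among the 1454 intergenic regions of 3 to 5 kb, 89.3% had a peak in all 4 libraries and a median of 85.4% of the bases was masked. The 15393 regions of 0.5 to 1 kb had 10.2% and 30.6%. A region spans the joined peaks of all libraries, so its width and the number of libraries that called it are tied by construction.

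Of the 5 regions with the highest tag density, Vmn1r2 and Kcnh5 resembled each other in sequence, as given above. The most CpG-rich windows of Ly6c2 and Sfi1 held no 12-base word more than 1 time. The Tmem125 region (chr4:118546294-118548969, 2.25 kb upstream of a gene for a transmembrane protein) had 31.4 tags per kb of peak per 1000000 tags in WT 1, 32.4 in WT 2, 30.8 in βRapKO 1 and 24.4 in βRapKO 2. The median intergenic region with a peak in all 4 libraries had 1.96. In CPM the same region had 83.5, 67.1, 71.6 and 65.3, so that the genotypes overlapped and the log2 fold-change was -0.14 (SE 0.11, edgeR FDR 0.882); without WT 1 it was 0.03. Only 50.4% of its 49-base words occur once on chromosomes 1 to 19, X and Y.

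The Sfi1 region (chr11:3099765-3106227) had 103, 94.7, 96 and 103 CPM in the order WT 1, WT 2, βRapKO 1 and βRapKO 2. Sfi1 encodes a centrosomal protein. The Vmn1r2 region (chr4:3088877-3092887, 74.4 kb upstream of a vomeronasal receptor gene) had 54.6, 47.0, 49.0 and 52.8 CPM. Both of these lie beside the unassembled start of their chromosome, with 100236 and 61124 unknown bases within 100 kb. The Ly6c2 region (chr15:75085102-75087416) had 40.5, 33.0, 39.6 and 35.8 CPM, and the Kcnh5 region (chr12:74803276-74805265, 92.0 kb downstream of a potassium channel gene) had 25.4, 21.4, 21.9 and 24.4 CPM. In each of the 5 the genotypes overlapped. In the Ly6c2 and Vmn1r2 regions 76.2% and 63.4% of the 49-base words occur once in the reference, and the most frequent word occurs 95071 times. In the Sfi1 and Kcnh5 regions 86.2% and 95.6% of the words occur once, and the most frequent word occurs 27 and 254 times.

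The 4 regions with the smallest p among those with both βRapKO values under both WT values in CPM were named by rank. Their separation in CPM therefore follows from the choice. The G530012D18Rik region (chr1:85471906-85476982) had 18.6 CPM in WT 1, 18.9 in WT 2, 11 in βRapKO 1 and 11.3 in βRapKO 2, a log2 fold-change of -0.75 (SE 0.09, edgeR FDR 0.380). The 2 values of each genotype were close to each other, and a choice by small p favours such regions. Of the 49-base words of this region 23.6% occur once in the reference, and 75198 unknown bases lie within 100 kb. The peak was 4943 and 4741 bp wide in WT and 3019 and 2957 bp wide in βRapKO, and per kb of peak the 4 values were 3.76, 3.99, 3.64 and 3.83.

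The Prl2c2 region (chr13:12930147-12933019, 63.1 kb downstream of the gene for proliferin, a placental hormone) had 4.92, 5.46, 2.36 and 2.09 CPM, a log2 fold-change of -1.22 (SE 0.17, edgeR FDR 0.380). Its peak narrowed from 2397 and 2202 bp to 1322 and 899 bp, and the per kb fold-change was -0.17. The Sept9 region (chr11:117387452-117390152, downstream of a gene for a cytoskeletal septin) had 5.0, 5.04, 2.33 and 2.30 CPM, with a log2 fold-change of -1.12 and of -0.30 per kb of peak. Its sequence is nearly unique, with 99.2% of the 49-base words occurring once. The Zfp781 region (chr10:81972502-81975552, near a zinc finger gene) had 5.55, 6.06, 2.70 and 2.64 CPM and a log2 fold-change of -1.12. Here 1.67% of the words were unique, and with peaks joined only at an overlap of 50% of the shorter peak the fold-change was 0.12.

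The 4 regions with the smallest p in the other direction, chosen with both βRapKO values above both WT values in CPM, shared a wider peak in βRapKO. The Polr3k region (chr2:181916041-181922387, 45.2 kb downstream of a gene for a subunit of RNA polymerase III) had 14.0 CPM in WT 1, 11.2 in WT 2, 23.5 in βRapKO 1 and 24.7 in βRapKO 2, a log2 fold-change of 0.94 (SE 0.12, edgeR FDR 0.380). Its peak measured 2751 and 2169 bp in WT and 5467 and 6284 bp in βRapKO, and the density went from 5.09 and 5.17 to 4.29 and 3.94 tags per kb per 1000000 tags. This is the region whose window matches that of G530012D18Rik. The near-identical windows thus lie in regions that were higher in βRapKO at one locus and lower at the other. Only 50.2% of the 49-base words of the Polr3k region and 23.6% of those of the G530012D18Rik region occur once in the reference. How this affects the placement of tags was not tested.

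The Aasdhppt region (chr9:4237766-4243818) had 11.5, 10.9, 18.1 and 18.9 CPM, the Maea region (chr5:33327311-33330373) 5.24, 5.23, 9.79 and 9.29, and the Nfxl1 region (chr5:72564164-72567852) 3.17, 3.16, 6.60 and 6.51. Their log2 fold-changes were 0.73, 0.86 and 1.05. Per kb of peak they were -0.42, -0.34 and -0.23, the opposite sign, as for Polr3k at -0.32. Unique words made up 7.23% of the Aasdhppt region, 18.8% of the Maea region and 94.5% of the Nfxl1 region.

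**Figure D3:**
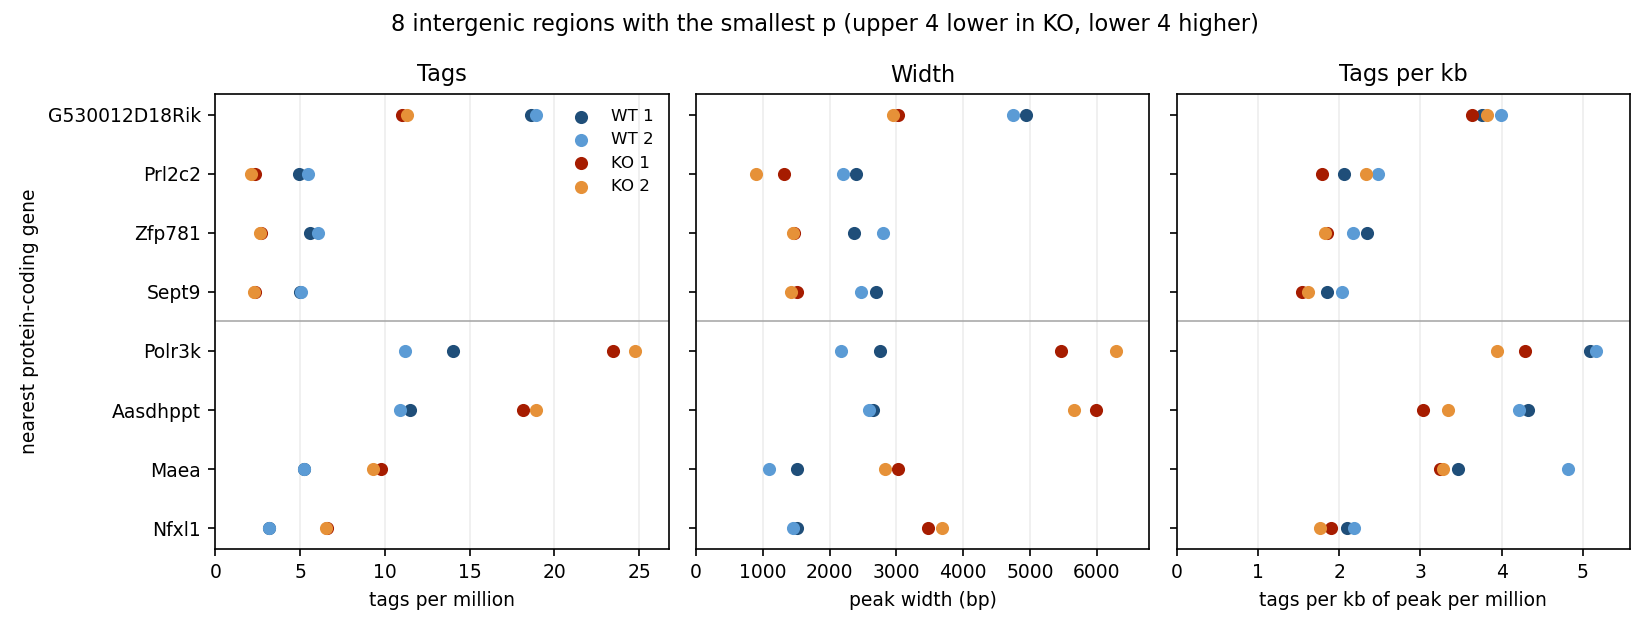
CPM (left), peak width in bp (middle) and tags per kb of peak per 1000000 tags (right) in each library, shown as 1 point per library, for the 8 intergenic regions with the smallest p. The regions were chosen with both βRapKO values on the same side of both WT values in CPM, so the separation in tags follows from the choice. Width separates the genotypes in the same order as tags in each region. In tags per kb the 4 regions with more tags in βRapKO (Polr3k, Aasdhppt, Maea and Nfxl1) lie lower there.

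What these 8 share holds among the larger folds in general. Of the 268 intergenic regions with a fold above 1.5 in the lower direction, the peaks were narrower in βRapKO in 249, and of the 242 in the higher direction they were wider in 241. Per kb of peak, 29 of the 268 and 1 of the 242 kept a fold above 1.5 in the same direction. Over all tested regions the picture was alike: 1223 of 1303 were narrower and 941 of 943 wider, and 132 and 3 kept the fold. Their median log2 fold-change went from -0.69 to -0.21 and from 0.72 to -0.13. Across all 17178 the median fold-change in CPM climbed from -0.57 where the peak was narrower by over 0.5 on the log2 scale (273 regions) to 0.73 where it was wider by over 1 (123 regions), and that per kb fell from 0.04 to -0.44. Both folds contain the width by construction. Whether the widths differ through the peak calls or through the mark itself was not tested.

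**Figure D4:**
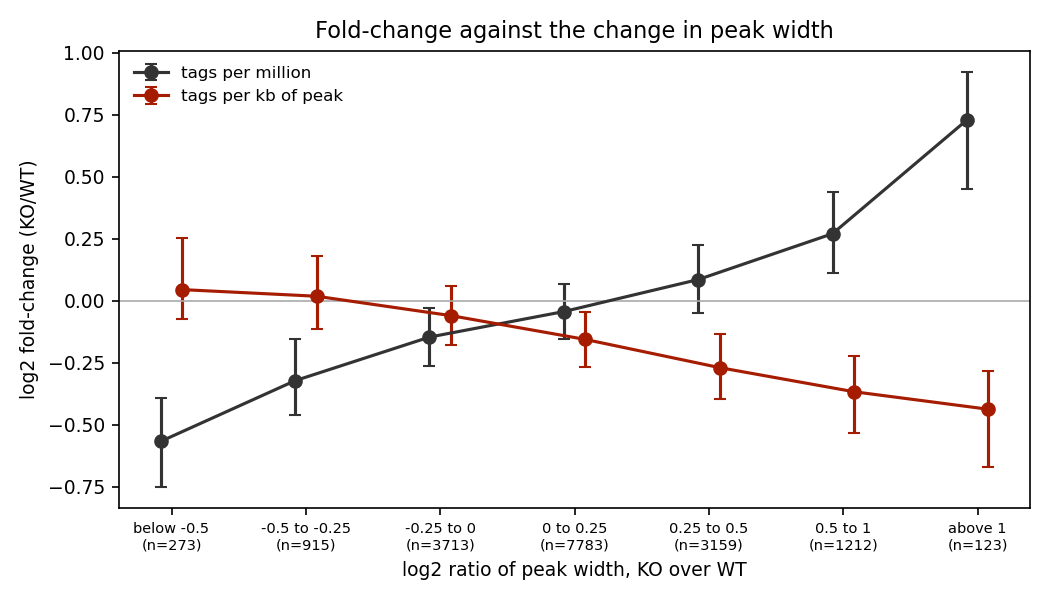
Median log2 fold-change (βRapKO over WT) of intergenic regions by the log2 ratio of their peak widths, in CPM and in tags per kb of peak, with bars from the lower to the upper quartile of the regions and n regions per class. The CPM medians climb from -0.57 to 0.73 with width, and the per kb medians go the other way.

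Per kb of peak, both βRapKO values lay under both WT values in 6875 intergenic regions (40.0%, against 41.0% of all tested regions) and above them in 835 (4.86%, against 4.59%). At an unadjusted p under 0.05, 1896 lay lower (11%, against 12.6% of all tested regions) and 70 higher (0.407%, against 0.341%) in that fit, and the smallest FDR was 0.119, so that no region passed.

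The repeat unit of G530012D18Rik and Polr3k was followed across the genome. Of the 155 intergenic regions that hold the word GAGGTGGGACTC, 141 had a peak in all 4 libraries. In these 81 lay lower and 60 higher in βRapKO. Their median log2 fold-change was -0.04, the same as that of all intergenic regions to 2 decimals. Both βRapKO values were under both WT values in 44 (of all intergenic regions tested, 23.2%) and above them in 19 (12.6%). The median density was 3.58 tags per kb per 1000000 tags, higher than the 1.96 of all intergenic regions with a peak in the 4 libraries.

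Of the CpG-densest regions among those with a peak in every library, 3 are described, and they were of modest level. The Syt10 region (chr15:89765128-89766616, near the gene for a synaptotagmin), with 5.78 CpG sites per 100 bp, had 2.15 CPM in WT 1, 2.17 in WT 2, 2.43 in βRapKO 1 and 2.57 in βRapKO 2. The Slc27a6 region on chromosome 18, the densest among those with a peak in every library at 7.42 CpG sites per 100 bp, had 1.25, 1.44, 1.20 and 2.23 CPM. The Clint1 region (chr11:45769353-45771079) had 3.05, 3.19, 2.33 and 2.43 CPM with a log2 fold-change of -0.39 (SE 0.18, edgeR FDR 0.861). In Clint1 both βRapKO libraries were lower and in Syt10 both were higher, while in Slc27a6 the genotypes overlapped.

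The 3 widest regions with a peak in every library were 8134 to 8337 bp long. In the Zfp729a region (chr13:67641381-67649717) CPM was 27.6 in WT 1, 14.8 in WT 2, 26.1 in βRapKO 1 and 28.8 in βRapKO 2, and in the Hsp90b1 region (chr10:86676200-86684365) it was 27.8, 14.8, 29.1 and 26.6. In both, WT 2 stood apart from the other 3 libraries and its peaks covered 3806 and 3889 bp, against 7850 to 8337 bp in the others. The Suclg1 region (chr6:73286144-73294277) had 39.7, 36.4, 32.4 and 33.3 CPM, lower in both βRapKO libraries, with a log2 fold-change of -0.21 (SE 0.08, edgeR FDR 0.853). Between 9.98% and 15.8% of the words of these 3 regions were unique.

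Whether a region was called at all was compared next. Peaks in all 4 libraries were found in 17178 intergenic regions (39.8%), in 3 libraries in 6694, in 2 in 7304 and in 1 in 11959. The WT pair alone called 1832 of them (4.25%, against 4.19% of all regions), and the βRapKO pair alone called 715 (1.66%, against 1.59%). Pairs that cross the genotypes gave counts of the same size: 1847 for WT 2 with βRapKO 2, 1490 for WT 2 with βRapKO 1, 738 for WT 1 with βRapKO 1 and 682 for WT 1 with βRapKO 2. The pairs with WT 2 were thus the larger ones, whatever the genotype of the partner.

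**Figure D5:**
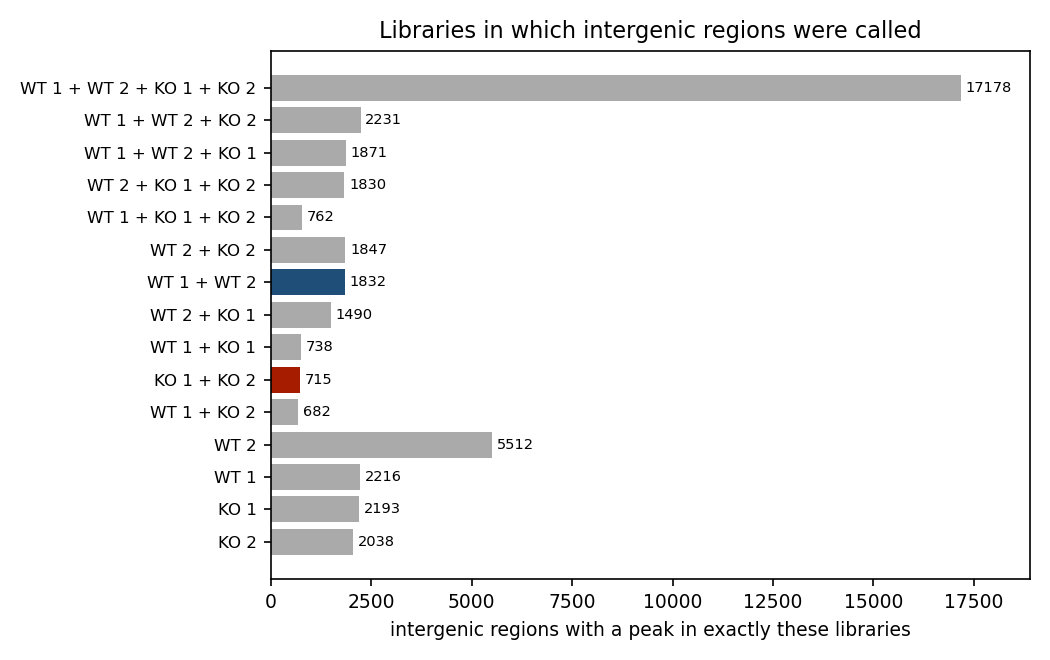
Number of intergenic regions (x axis) with a peak in exactly the libraries named at the left, with the WT pair in blue and the βRapKO (KO) pair in red. The WT pair (1832) is about as frequent as WT 2 with βRapKO 2 (1847), and the βRapKO pair (715) lies between the 2 mixed pairs with WT 1.

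Such regions were small, with a median width of 972 bp for the WT pair and 1028 bp for the βRapKO pair. A peak of the other genotype lay within 1 kb of 272 (14.8%) of the former and 117 (16.4%) of the latter. Their share fell with CpG density, from 5.51% and 2.43% under 1 CpG site per 100 bp to 2.10% and 0.589% at 3 to 4.

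The strongest of them were far above that size. The Zfp42 region (chr8:43312811-43320711, 5.83 kb upstream of the gene for the pluripotency factor REX1) had 963 tags in WT 1 and 959 in WT 2, which are 37.6 and 30.6 CPM, and no peak in either βRapKO library. Its peaks covered 7901 and 5764 bp, it had 3.77 CpG sites per 100 bp, and 7.37% of its words were unique. The Ulbp1 region (chr10:7478960-7483119, near a gene for a ligand of a natural killer cell receptor) had 13.9 and 15 CPM in WT and the Rprd1a region (chr18:24536751-24540636) 13.8 and 14.2. Their unique words made up 15.2% and 6.64%. The nearest βRapKO peaks lay 6234, 42814 and 4582 bp away.

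On the βRapKO side the Hdac4 region (chr1:92224951-92229244, 29.3 kb upstream of a histone deacetylase gene) had 6.71 CPM in βRapKO 1 and 9.53 in βRapKO 2, with peaks of 2819 and 4294 bp, and none in WT. The Rap1b region (chr10:117874856-117878146, upstream of a gene for a small GTPase) had 5.95 and 5.62 CPM. In both of these every 49-base word is unique. A WT peak ended 764 bp before the Rap1b region, in a neighbouring region called in both WT libraries only (chr10:117872318-117874092, 4.22 and 2.27 CPM). The Ctr9 region (chr7:111005566-111008163) had 6.50 and 5.38 CPM, with the nearest WT peak 333 bp away. Tags outside peaks were not analysed here, so a library without a peak has no value and these regions have no fold-change.

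The neighbouring genes were described next. The 43135 intergenic regions had 10848 nearest protein-coding genes, with a median of 3 regions per gene and 10 or more at 978 genes. Slc38a4, which encodes an amino acid transporter, had 31, Fer, which encodes a tyrosine kinase, had 27, and Spry2, an inhibitor of receptor tyrosine kinase signalling, had 26. Chemoreceptor genes had repeat-rich neighbours: 700 regions were nearest to an olfactory receptor gene (Olfr) and 605 to a vomeronasal receptor gene (Vmn), with a median masked share of 82.0% and 83.4%. Of these 55.3% and 54.7% had a peak in all 4 libraries. Their median log2 fold-changes were both -0.05.

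Genes of islet function and of the mTOR pathway were then looked up among the nearest genes. Raptor (gene Rptor) is the scaffold of the mTOR complex 1, a kinase complex that couples nutrients and insulin signals to growth. Of 24 beta cell transcription factors, 18 had intergenic regions nearest to them, 96 in all. In 28 of these a peak was present in every library. Values were lower in βRapKO in 19 and higher in 9, and the median log2 fold-change was -0.10 (-0.11 per kb of peak, -0.04 after TMM). Both βRapKO values were under both WT values in 3 and above in 3. None passed the FDR, and the smallest p was that of a Glis3 region.

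Nkx6-1, which maintains beta cell identity, had 14 regions, and its strongest (chr5:101613704-101619768, 38.4 kb downstream) had 14.0 CPM in WT 1, 11.4 in WT 2, 7.08 in βRapKO 1 and 11.8 in βRapKO 2. The genotypes overlapped, with a log2 fold-change of -0.42 (SE 0.23, edgeR FDR 0.861). The strongest region near Irx2, an alpha cell factor, had 5.47, 6.10, 5.0 and 4.76 CPM, and that near Isl1, a factor of all endocrine islet cells, had 2.81, 3.0, 2.91 and 2.71. Pdx1, Nkx2-2 and Foxa1 had 1 region each, not called in all 4 libraries. A Glis3 region (chr19:28736935-28739428, 56.9 kb upstream) had 3.95, 3.86, 2.91 and 2.67 CPM, a log2 fold-change of -0.48 and one of 0.11 per kb of peak, and was named after its values were seen.

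Of 26 genes for hormones, glucose sensing and secretion, 17 had 78 regions, 25 of them with a peak in every library. There 18 lay lower and 7 higher, the median log2 fold-change was -0.10, and 7 had both βRapKO libraries below both WT libraries and 0 above. Ins2, an insulin gene, had 3 regions, and its strongest (chr7:142778965-142782001, 35.6 kb upstream, masked along its whole length) had 12, 10.8, 10.6 and 11.6 CPM. Near Slc2a2, the glucose transporter of mouse beta cells, values were 3.56, 3.10, 2.67 and 2.95, and near Snap25, a protein of vesicle fusion, 3.44, 3.64, 3.18 and 2.88. In both of these the βRapKO libraries were the lower ones, by less than 1 CPM. Near Pcsk1, a proinsulin convertase gene, they overlapped at 8.13, 6.73, 7.56 and 7.03.

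Abcc8 encodes the sulfonylurea receptor of the potassium channel that triggers insulin release. Its region (chr7:46182131-46184651, 2.10 kb upstream), named after its values were seen, had 2.46 CPM in WT 1, 4.34 in WT 2, 1.95 in βRapKO 1 and 2.13 in βRapKO 2. The log2 fold-change was -0.75 (SE 0.28, unadjusted edgeR p 0.0307, FDR 0.851) and -0.52 per kb of peak. Without WT 2 it was -0.27 and without WT 1 it was -1.09. WT 2 was far above the other 3 libraries, while WT 1 was closer to the βRapKO libraries.

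Disallowed genes are kept silent in beta cells while most other tissues express them, and several others mark immature beta cells. Of 24 such genes 18 had 135 regions, 49 of them with a peak in every library, 31 lower and 18 higher, and the median log2 fold-change was -0.07. In 14 both βRapKO values were under both WT values and in 5 above. Slc16a1, a disallowed lactate transporter, had 13.8, 13.5, 12.8 and 12.7 CPM in its strongest region (chr3:104592766-104595928). Near Dlk1, an imprinted gene of immature cells with 19 regions, the strongest had 4.30, 8.04, 5.06 and 6.79 CPM. Near Itih5 the values were 4.49, 3.48, 3.08 and 3.15, a log2 fold-change of -0.35.

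Near Pdgfra, the gene of a growth factor receptor of young beta cells, a region (chr5:75288747-75292027) had 3.71, 3.16, 4.31 and 6.20 CPM, higher in both βRapKO libraries with a log2 fold-change of 0.62 (SE 0.22, unadjusted edgeR p 0.0230, FDR 0.851). It was -0.36 per kb of peak, since the peaks were 2365 and 3034 bp wide in βRapKO and 1450 and 1310 bp in WT. A Cxcl12 region (chr6:117129479-117131359), named after its values were seen, had 1.17, 1.82, 2.43 and 2.57 CPM and log2 fold-changes of 0.72 and, per kb, 0.12. Ldha and Hk1 had no intergenic region nearest to them.

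Of 21 genes listed for mTOR and insulin signalling 13 had 69 regions, 28 of them with a peak in every library. The list includes Pdk1, which the authors place among mitochondrial genes and which had 4 of the 69 regions and 1 of the 28. Lower values were found in 17 and higher ones in 11, the median log2 fold-change was -0.04, and both βRapKO values were under both WT values in 10 and above in 3. Rptor itself had 4 regions outside the gene, and the strongest (chr11:119580616-119582728, 20.2 kb upstream) had 3.01, 3.10, 2.50 and 3.60 CPM, with overlap. Near Eif4ebp1, the gene of a translation repressor that mTOR complex 1 phosphorylates, values were 11.5, 12, 10.1 and 10.8.

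Near Insr, the insulin receptor gene, a region (chr8:3059232-3060466) had 2.74, 2.62, 2.26 and 1.78 CPM, lower in both βRapKO libraries, with a log2 fold-change of -0.40 and of -0.70 per kb of peak (edgeR FDR 0.861 for the former). Of those with p under 0.05, named after their values were seen, a region near Igf1r, the gene of the IGF-1 receptor, had 1.17, 1.53, 2.09 and 2.40 CPM and log2 fold-changes of 0.71 in CPM and -0.11 per kb. A region near Rictor, a subunit of mTOR complex 2, had 2.31, 3.16, 4.69 and 3.98 CPM (0.65 and -0.41). One near Rheb, the GTPase that activates mTOR complex 1, had 1.60, 1.44, 1.06 and 1.1 CPM (-0.48 and -0.28).

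Of 14 DNA methylation genes 7 had 25 regions, and 6 of these had a peak in every library, 2 lower and 4 higher. Near Dnmt3a, a gene for a methyltransferase that sets new methylation, values were 2.42, 2.59, 1.68 and 2.54 CPM, with overlap. Near Mbd2, a reader of methylated DNA, they were 2.07, 2.11, 2.70 and 2.60, higher in both βRapKO libraries (log2 fold-change 0.34, SE 0.19, edgeR FDR 0.861), and near Tet2, which oxidises the mark, 3.40, 3.16, 3.22 and 3.46. For all 5 lists the counts below and above stand beside the 23.2% and 12.6% of all intergenic regions, and no list was tested.

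Annotated enhancers were compared with the intergenic regions last. RefSeq lists 1006 enhancer intervals on chromosomes 1 to 19 and 264 of them, some nested in one another, meet the same rule of position. An intergenic region overlapped 73 of these (27.7%), and 81 intergenic regions overlapped any of the 1006, 32 of them with a peak in every library. Their median log2 fold-change was -0.03 (-0.16 per kb of peak). In 8 both βRapKO values were under both WT values and in 6 above, 6 were called in both WT libraries only and 2 in both βRapKO libraries only. Over all intergenic regions these shares were 23.2%, 12.6%, 4.25% and 1.66%, and the enhancers were not tested against them. Enhancers active in embryonic brain or neural tube were covered in 44 of 93 intervals and those active in limb in 17 of 47. Of the intervals with heart in the label, 11 of 42 were covered. The 42 include an interval near Des that is labelled as not active in heart. The median lengths were 2507, 2673 and 2112 bp in the same order. The labels of the intervals name no pancreatic enhancer among the 264.

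Single enhancers had low to moderate levels. The nPE1 enhancer of Pomc, active in arcuate neurons of the hypothalamus, lay in a region (chr12:3941470-3943437, 11.5 kb upstream) with 3.91, 3.16, 3.42 and 3.94 CPM, with overlap of the genotypes. A heart enhancer near Bmp7, a growth factor gene, overlapped in part a region with 3.36, 3.48, 3.05 and 2.98 CPM, and one near Myl2, a cardiac myosin gene, a region with 2.35, 2.81, 2.26 and 2.19. In both, the βRapKO libraries were the lower ones. A hindlimb enhancer near Tbx4 partly overlapped a region called in both WT libraries only, with 1.29 and 1.21 CPM. A limb and face enhancer reached into a region near Actrt2 (chr4:154710358-154714894) with 10.04, 9.26, 6.91 and 6.41 CPM, lower in both βRapKO libraries. A forebrain enhancer near Lrig1, the gene of a brake on growth factor receptors, reached into a region with 1.09, 1.24, 1.4 and 2.50 CPM, higher in both. Except at nPE1, part of each enhancer lay outside the region, whose tags are therefore not those of the whole enhancer. These enhancers were chosen for mention after their values were seen.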

How the data were processed

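Methylated DNA was precipitated from islets of 2 WT and 2 βRapKO samples and sequenced. Per the labels and methods, the authors aligned the reads with Bowtie2 2.2.5 and called peaks in each library alone with MACS (1.4.2 in the file headers, 0.14.2 in the submitters' processing notes), at a p cutoff of 1e-05, keeping 1 tag per position and using no control library. The labels name both mm10 and mm9, and the methods name mm10. The deposited values of each peak are a tag count, a score (a scaled −log10 of the p-value) and a fold enrichment over the local background, a ratio. Tags outside peaks were not used here.

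Peaks overlapping by at least 1 bp were joined, and tag counts were summed per region and library. CPM is tags per 1000000 tags after duplicate removal. The regions that every library called were tested across all classes by the edgeR 4.0.16 quasi-likelihood test in R 4.3.3 (Benjamini-Hochberg adjusted), with that library size as the scaling. Choosing regions by a peak in every library leaves out those absent from a genotype, which are described as calls. DESeq2 1.42.0, limma 3.58.1, TMM, other library sizes, tags per kb of peak, stricter peaks, another overlap, other distance limits, a minimum of 50 tags, a replicate block and leaving out each library were the alternatives. Values per library were compared by two-sided exact permutation tests. With 2 libraries per group and no statement that they came from separate animals, p-values measure only the spread between libraries, which may be technical. Replicates differed beyond counting noise. The tests were checked on simulated counts.

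Genes came from GENCODE, and sequence, soft-masking and enhancers from RefSeq (GRCm38.p6). Named were the regions with the highest density, smallest p in each direction, most tags in a genotype-only call, most CpG sites and greatest width, and the strongest regions near genes of 5 lists. Those ranked by density, p, CpG sites and width were taken among regions with a peak in every library. For p, both βRapKO values also had to lie on the same side of both WT values in CPM. The regions and lists were chosen with earlier results of these data known. The analyses of words, window identity, enhancers and peak width, and the list members with p under 0.05, were added after values were seen. Results for some items that met these rules are not reported here.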

Additional observations from a re-analysis of the deposited data

How the results depend on the processing

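No intergenic region passed the edgeR test under any alternative, and with the replicate block the counts were 0 and 0 and the median log2 fold-change was -0.04, so the block changed no call. The replicate numbers share only a number: the correlation of the deviations of same-numbered libraries was 0.0412 over 2 pairs, and at an unadjusted p under 0.05 the block gave 601 lower and 396 higher regions. The median fold-change of the intergenic regions was 0.12 when scaled to the tags in peaks, 0.019 with TMM, 0.017 with DESeq2 and -0.16 per kb of peak, and TMM moved the median over all regions from -0.06 to 0.00325. The density ratio was 0.039 when scaled to the tags in peaks and -0.14 when scaled to the tags before duplicate removal. Stricter peaks left 1055 regions called in both WT libraries only and 272 in both βRapKO libraries only. The intergenic minus gene difference was 0.015 per kb of peak, 0.000183 with at least 50 tags and 0.011 beyond 5 kb. The far minus near difference was -0.014 with stricter peaks, -0.00492 with peaks joined at an overlap of 50% of the shorter peak and -0.011 with at least 50 tags. Tmem125 was 0.017 when scaled to the tags in peaks, and Zfp781 was 0.12 under the other overlap. Per kb of peak, Polr3k was -0.32, Aasdhppt -0.42, Maea -0.34, Nfxl1 -0.23, Pdgfra -0.36, Glis3 0.11, Igf1r -0.11 and Rictor -0.41, since that scale divides by width. Other causes were not tested.

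Leaving out 1 library gave medians of -0.08 to -0.02, density ratios of -0.13 to -0.12, intergenic minus gene differences of 0.0152 to 0.0321, and far minus near differences of -0.0205 to 0.00884, negative without WT 1 and without βRapKO 2. Tmem125 ranged from -0.29 to 0.028, the latter without WT 1. Regions called only in WT numbered 3703 to 7344 (the highest without WT 1) and only in βRapKO 1477 to 2908, since fewer libraries must lack a peak or have one. The test counts stayed at 0 to 0. The effect of depth on the peak calls was not tested, and 2 libraries per genotype limit the exact tests.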
